A study of Capra hircus with 12 samples.

Results

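MicroRNAs of the families miR-103, miR-107, miR-191, miR-425, miR-423, miR-186 and miR-361 were examined as candidates for normalizing follicle microRNA data. All goat miRNAs with these names, in every arm, were taken, which gave 12 miRNAs of the 376 listed, from 7 precursors. They were measured in 12 small RNA libraries of secondary hair follicles (SHFs), the small follicles that grow cashmere, dissected under a microscope from skin of Liaoning cashmere goats aged 1.5 years. Each of 6 months had 1 library of female and 1 of male goats, with no treatment and no genetic change. February and March are telogen (4 libraries), May is early anagen (2 libraries), September is mid-anagen (2 libraries), and November and December are catagen (4 libraries). The study describes several goats of each sex per time point without saying how they were combined, so p-values measure the spread between these libraries.

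A relative quantity of a miRNA, by RT-qPCR or by sequencing, is only as good as the reference it is divided by, and a usable reference has a level that does not move with the condition studied. The candidates are miRNAs in wide use as references. miR-103 and miR-107 lie in introns of the pantothenate kinase genes PANK2 and PANK1 and are known to repress Dicer. miR-191 and miR-425 are neighbours at DALRD3, miR-423 lies in NSRP1, miR-186 in ZRANB2 and miR-361 in CHM, by RefSeq names of goat assembly ARS1.2. A precursor gives a 5p arm and a 3p arm, of which 1 is usually kept. The mature miR-103-3p and miR-107-3p are near-identical, and how reads matching both were assigned is not given in the sources used here, so the values of these 2 are uncertain to that extent.

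The libraries held 3135292 to 5788032 counts, and the candidates took between 0.923% and 1.423% of them. TPM, the deposited level, is the count divided by the library total and scaled as CPM, and 3 counts correspond to a TPM of 0.518 to 0.957. Levels were also scaled by TMM, a correction for the composition of a library, with factors of 0.813 to 0.916 for catagen, 0.848 and 0.912 for September, 1.01 to 1.23 for telogen and 1.25 and 1.29 for May. Because of these factors, the median log2 fold change of all tested miRNAs was 0.07 with TMM and -0.46 with library totals from May to September. It was 0.00 with TMM and -0.35 with library totals from telogen to catagen. Changes are therefore set under both scalings where a result turns on them, TMM being the main one. Of the 66 differences between groups of the tested candidates, 18 had opposite signs under the 2 scalings, and none of these passed under both.

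The levels of the candidates spanned several orders of magnitude. By mean TPM the dominant arms were miR-103-3p, miR-107-3p, miR-186-5p, miR-191-5p, miR-361-3p, miR-423-3p and miR-425-5p. Of the 12 candidates, 8 had a mean TPM of at least 100. chi-miR-103-5p did not exceed a TPM of 3.2 in any library and was the 1 candidate not tested, since it failed the filter of more than 5 CPM in at least 2 libraries. miR-191-3p (TPM 4.3 to 8.7) and miR-425-3p (4.1 to 9.2) passed the filter but were scarce, and counting error alone gives them a coefficient of variation (CV) of 18.6% and 17.8%.

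Over the 4 groups, 6 of the 11 tested candidates differed with TMM at an adjusted p under 0.05, where 47.3% of all 300 tested miRNAs did (edgeR's quasi-likelihood test, Benjamini-Hochberg). With library totals the count was 5 of 11, where 51% of all did. These shares are close to the background. Only miR-107-3p, miR-186-5p, miR-423-5p and miR-425-5p were among the called candidates under both scalings. miR-103-3p and miR-361-3p were called with TMM only, and miR-423-3p with library totals only. miR-191-5p, miR-191-3p, miR-361-5p and miR-425-3p did not pass under either scaling. Leaving out 1 library ended the TMM call of miR-107-3p (male May or female September, adjusted p up to 0.0714), of miR-361-3p (female May, 0.0675) and of miR-425-5p (either May, November or February library, up to 0.129). The calls of miR-103-3p, miR-186-5p and chi-miR-423-5p were kept in all 12 such fits.

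**Figure D1:**
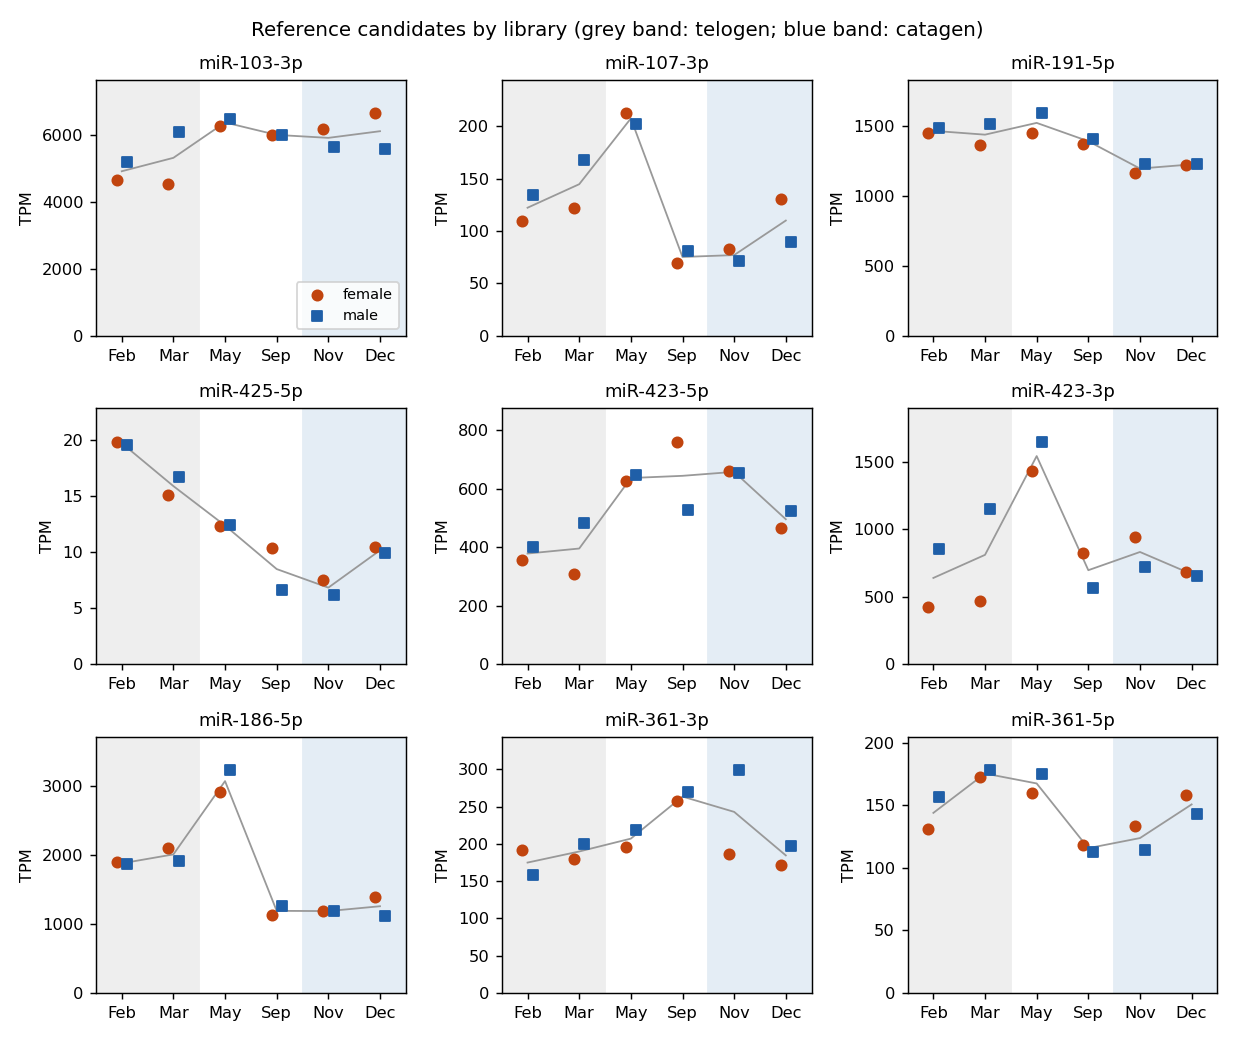
Deposited TPM (y axis, linear from 0) of 9 candidates in each of the 12 libraries by month (x axis), with circles for female and squares for male libraries and a grey line through the means of each month. miR-191-5p stays between 1161 and 1589, while miR-107-3p falls from 212 and 202 in May to 69.8 and 80.7 in September.

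miR-191-5p had the lowest CV of the candidates under both scalings. Its TPM was 1445 and 1482 in February (female, then male), 1363 and 1509 in March, 1451 and 1589 in May, 1372 and 1407 in September, 1161 and 1228 in November, and 1220 and 1228 in December. By TPM, the 4 catagen libraries lay below all the others and September lay within the telogen range. May overlapped with telogen but not with September. With TMM the order differed, as September (1542 and 1618 CPM) lay above all other libraries. Catagen (1331 to 1450) then lay above May (1162 and 1235) and overlapped with telogen (1225 to 1437). Its CV over the 12 libraries was 9.86% with TMM and 9.84% with library totals, which ranked 5 and 6 among 300 tested miRNAs, and the highest library was 1.39-fold and 1.37-fold above the lowest. The groups did not pass the test with TMM (span of the group means 0.40 on the log2 scale, adjusted p = 0.0868, edgeR) or with library totals (span 0.33, adjusted p = 0.0596). Of all tested miRNAs, 86.7% had a larger span with TMM. Among the candidates, miR-361-5p had a smaller span with TMM (0.27). With library totals miR-191-3p (0.26), miR-103-3p (0.32) and miR-425-3p (0.32) had smaller ones.

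The direction of the small differences of miR-191-5p depended on the scaling. From May to September its log2 fold change was 0.40 (SE 0.131, adjusted p = 0.0334) with TMM and -0.13 (SE 0.127, adjusted p = 0.441) with library totals. Between telogen and catagen it was 0.10 (95% interval -0.11 to 0.30, adjusted p = 0.419) with TMM and -0.26 (-0.46 to -0.07, adjusted p = 0.0376) with library totals. From May to catagen edgeR gave 0.23 (-0.02 to 0.48, adjusted p = 0.124) with TMM and -0.33 (-0.57 to -0.09, adjusted p = 0.0261) with library totals. Each of these intervals lay within a 2-fold change. The May to September call was lost without either May library, either September library or the female March library, with adjusted p up to 0.651. It was also lost with RLE, upper quartile scaling, no filter on low counts, edgeR's default filter and the likelihood-ratio test. The passenger arm miR-191-3p had a CV of 25.9% with TMM and 25.7% with library totals, against the counting error of 18.6%.

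miR-361-5p had the next lowest CV with TMM, and miR-103-3p with library totals. The TPM of miR-361-5p was 131 and 157 in February, 173 and 178 in March, 160 and 175 in May, 119 and 113 in September, 133 and 114 in November, and 158 and 143 in December. By TPM, September was below telogen and May, and overlapped with catagen only at the low end. With TMM, September (124 and 140 CPM) overlapped with telogen (130 to 166) and May (128 and 136). Its CV was 11.8% with TMM (rank 13 of 300) and 16.4% with library totals (rank 35). The span over the groups was 0.27 with TMM (adjusted p = 0.316), and 96% of tested miRNAs had a larger one. With library totals the span was 0.53 (adjusted p = 0.102). The difference from May to September was -0.00 with TMM (95% interval -0.40 to 0.39) and -0.53 with library totals (-0.98 to -0.09, adjusted p = 0.0537).

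The other arm of the same precursor, miR-361-3p, moved more. Its TPM was 192 and 158 in February, 180 and 200 in March, 196 and 218 in May, 258 and 269 in September, 187 and 299 in November, and 172 and 197 in December. Both September libraries stood above telogen and May, whereas catagen spanned the range, with the male November library the highest of all 12. With TMM it rose from May to September by 0.88 (SE 0.258, adjusted p = 0.0200) and from telogen to catagen by 0.59 (SE 0.182, adjusted p = 0.0259), but with library totals these were 0.35 (adjusted p = 0.282) and 0.23 (adjusted p = 0.296). The May to September call was lost without any one of the May or September libraries or the female March library, where fits without 1 library gave 0.59 to 0.93. It was also lost with edgeR's default filter. The telogen to catagen call was lost without the male November library, and without the female May, male February or female March library (adjusted p up to 0.0759), and also with RLE, upper quartile scaling, the geometric mean of the dominant arms, no filter on low counts and edgeR's default filter. Its CV was 31.6% with TMM and 20.4% with library totals.

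miR-103-3p was the most abundant candidate. Its TPM was 4646 and 5179 in February, 4538 and 6088 in March, 6256 and 6481 in May, 6004 and 5990 in September, 6174 and 5643 in November, and 6645 and 5569 in December. By TPM, the male March library was the 1 telogen library that overlapped with the other groups. With library totals its CV was 11.8% (rank 10 of 300) and the groups did not pass the test (span 0.32, adjusted p = 0.159). With TMM its CV was 20.5% (rank 64) and the groups differed (span 0.60, adjusted p = 0.00124), since the mean level was 4612 ± 244 CPM in telogen (SD, n = 4) and 6987 ± 530 in catagen (n = 4), without overlap. The log2 fold change from telogen to catagen was 0.60 (SE 0.092, adjusted p = 0.00079) with TMM and 0.23 (SE 0.111, adjusted p = 0.109) with library totals. From May to September it was 0.44 (adjusted p = 0.0197) with TMM and -0.09 (adjusted p = 0.716) with library totals. The former was lost without either May library, the female September or the female March library (adjusted p up to 0.405).

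miR-107-3p, the close relative of miR-103-3p, had a different course. Its TPM was 110 and 135 in February, 122 and 167 in March, 212 and 202 in May, 69.8 and 80.7 in September, 82.8 and 71.4 in November, and 130 and 89.6 in December. May stood above every other library, September below telogen and May, and the female December library alone brought catagen into the telogen range. It fell from May to September by 0.94 on the log2 scale with TMM (SE 0.225, adjusted p = 0.00803) and by 1.46 with library totals (SE 0.281, adjusted p = 0.00217). With TMM that call was lost without the female September library (adjusted p = 0.0655). The CV was 24.3% with TMM and 40.1% with library totals, rank 98 and rank 196 of 300.

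miR-186-5p shared this course. Its TPM was 1898 and 1866 in February, 2105 and 1920 in March, 2917 and 3237 in May, 1129 and 1256 in September, 1193 and 1185 in November, and 1396 and 1122 in December. May was above telogen, and telogen above September and catagen, with no overlap between these 3 levels. It fell from May to September by 0.84 with TMM (SE 0.156, adjusted p = 0.00233) and by 1.37 with library totals (SE 0.149, adjusted p = 0.000212). It kept its TMM call without any 1 library. From telogen to catagen it fell by 0.32 with TMM (adjusted p = 0.0385) and by 0.67 with library totals (adjusted p = 0.00112). The TMM call was lost on leaving out the male May, either November, the male December, the female February or the female March library (adjusted p up to 0.1004). Its CV was 23.9% with TMM and 40.1% with library totals.

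Markers of other cell types were summed in the same libraries, in TPM alone. These sums were not scaled by TMM, which lowers May values and raises September values. The mesenchymal miRNAs (4 of 4 names with a value) were, like miR-107-3p and miR-186-5p, highest in May and lower in September than in telogen, with a summed TPM of 43972 to 47604 for May, 26152 to 40147 for telogen, 17210 to 18850 for September and 16009 to 23094 for catagen. Nearly all of this sum was miR-199a-3p and miR-199a-5p, at a mean TPM of 14675 and 13378, against 47.6 (miR-214-3p) and 81.9 (miR-214-5p). The epithelial miRNAs (4 of 5) were at 57477 to 96324 in telogen, 81129 to 88061 in May, 56551 to 72404 in September and 67582 to 93828 in catagen. May and September of this sum did not overlap in TPM. Most of the sum was miR-203, at a mean TPM of 63230, against 1601 (miR-200a), 5387 (miR-200b) and 5705 (miR-200c). The study reports miR-200a as higher in September than in May. The erythrocyte miRNAs (2 of 4) were at 27.9 to 115 in telogen and 5.41 to 26.4 in catagen, and the leukocyte miRNAs (4 of 6) lay between 393 and 664 in all groups. The muscle miRNAs (4 of 4), mostly miR-1 (mean TPM 2766), were at 2020 to 2665 in May and 3336 to 3410 in September, without overlap. They were at 1805 to 3544 in telogen and 2408 to 3480 in catagen. The endothelial miRNAs (2 of 2), mostly miR-126-3p (mean TPM 9692), lay between 8819 and 12699 in all groups. The part of these shifts in the candidates' values was not tested, and in bulk libraries fewer cells of a type and less RNA per cell cannot be told apart.

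chi-miR-423-5p, a widely used serum and tissue reference, was among the more variable candidates. Its TPM was 355 and 402 in February, 307 and 484 in March, 624 and 647 in May, 760 and 527 in September, 660 and 653 in November, and 467 and 524 in December. By TPM, telogen was lowest, and the male March library overlapped only with the female December library. With TMM, telogen lay below all other libraries. The CV was 35.5% with TMM (rank 194 of 300, above the median of 29.4% of all tested) and 25.9% with library totals (rank 100, below the median of 33.1%). With TMM the mean was 348 ± 40.2 CPM for telogen (SD, n = 4), 502 ± 2.35 for May (n = 2), 737 ± 225 for September (n = 2) and 675 ± 142 for catagen (n = 4).

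Telogen differed from September and catagen under both scalings. From telogen to catagen chi-miR-423-5p rose by 0.96 on the log2 scale with TMM (SE 0.177, adjusted p = 0.00207) and by 0.57 with library totals (SE 0.175, adjusted p = 0.0230). From telogen to September it rose by 1.08 with TMM (SE 0.208, adjusted p = 0.00354), a 2.12-fold change, and by 0.73 with library totals (SE 0.209, adjusted p = 0.0244). Without the female September library the TMM difference from telogen to September was 0.73 and did not pass (adjusted p = 0.112). The difference from telogen to May did not pass, at 0.53 with TMM (SE 0.211, adjusted p = 0.136) and 0.72 with library totals (SE 0.209, adjusted p = 0.0639). The study lists miR-423-5p among its differentially expressed miRNAs, in a cluster with low levels in telogen and high levels in all of anagen and in catagen.

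miR-423-3p, the dominant arm, was the most variable candidate by library totals. Its TPM was 425.4 and 855 in February, 468 and 1154 in March, 1435 and 1649 in May, 826 and 569 in September, 941 and 724 in November, and 681 and 657 in December. In telogen both female libraries were far below both male ones. By TPM, May stood above all other libraries. With TMM the female November library (1158 CPM) lay above the female May library (1149 CPM). The CV was 32.4% with TMM and 43.6% with library totals, rank 169 and rank 208 of 300. From May to September the log2 fold change was -0.61 with TMM (SE 0.361, adjusted p = 0.22) and -1.14 with library totals (SE 0.402, adjusted p = 0.0367). Over the 4 groups the adjusted p was 0.106 with TMM, or 0.0164 without the male March library.

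miR-425-5p was scarce and highest in telogen. Its TPM was 19.9 and 19.6 in February, 15.1 and 16.7 in March, 12.3 and 12.4 in May, 10.4 and 6.6 in September, 7.5 and 6.2 in November, and 10.4 and 9.9 in December. All 4 telogen libraries lay above the other 8. Between telogen and catagen it fell by 0.71 with TMM (SE 0.225, adjusted p = 0.0281) and by 1.06 with library totals (SE 0.225, adjusted p = 0.00437). The TMM call was lost without either November library or either February library (adjusted p up to 0.0809). Its CV was 31.7% with TMM and 38.3% with library totals, against a counting error of 13.3%.

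**Figure D2:**
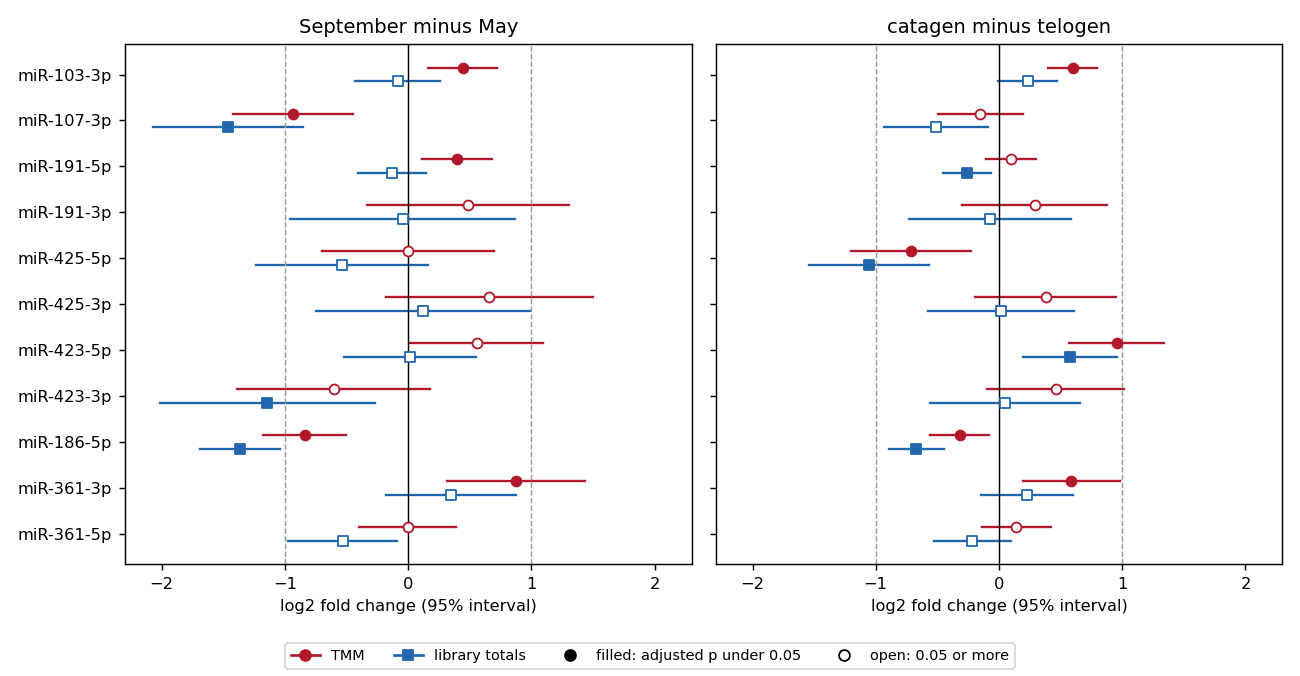
Log2 fold change (x axis) of the 11 tested candidates from May to September (left) and from telogen to catagen (right), with 95% intervals, by TMM (red circles) and library totals (blue squares), filled at an adjusted p under 0.05 and with dashed lines at 2-fold. The library-total value lies to the left of the TMM value for every candidate in both comparisons, and miR-191-5p crosses 0 between them in each.

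The 6 comparisons between groups were called by a 2-fold rule, which asks for both an adjusted p under 0.05 and at least 2-fold, or by the adjusted p alone. From telogen to May, no candidate was called by either rule with TMM (background 2.33% and 5.33%), although 5 had an unadjusted p under 0.05. DESeq2 called 0 at 2-fold, and miR-186-5p had an adjusted p of 0.0416 in DESeq2 and of 0.0384 in edgeR with sex as a block. With library totals 0 were called at 2-fold (1.33%) and 1, miR-186-5p, by adjusted p alone (5.67%). From May to September, 0 were called at 2-fold (18.3%) and 5 by adjusted p alone (34%) with TMM, where 6 had an unadjusted p under 0.05 and DESeq2 called 0 at 2-fold. With library totals 3 were called by either rule (26.7% and 40.7%), namely miR-107-3p, miR-186-5p and miR-423-3p, all lower in September.

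From telogen to catagen, 0 were called at 2-fold (10.7%) and 5 by adjusted p alone (35%) with TMM, where 5 had an unadjusted p under 0.05 and DESeq2 called 0 at 2-fold. With library totals these were 1, miR-425-5p (16%), and 4 (36.3%). From telogen to September, 1 candidate, chi-miR-423-5p, was called at 2-fold (9.33%) and 3 by adjusted p alone (25.3%) with TMM, and with library totals 1, miR-425-5p (14%), and 4 (28.7%). The 2-fold call of chi-miR-423-5p was lost with library totals (log2 fold change 0.73), RLE, upper quartile scaling or DESeq2. It was also lost without the female May, female September or female March library. From May to catagen, 0 were called at 2-fold (16.7%) and 3 by adjusted p alone (37%) with TMM, where 5 had an unadjusted p under 0.05 and DESeq2 called 0 at 2-fold. With library totals these were 3 (27.3%) and 4 (45.7%). From September to catagen no candidate was called by either rule under either scaling, against a background of 0%, with 0 candidates at an unadjusted p under 0.05 and 0 in DESeq2.

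A reference should also have a narrow interval. All 6 intervals lay within a 2-fold change with TMM for 3 candidates, miR-103-3p, miR-191-5p and miR-361-5p, where 20.7% of all tested miRNAs met this. With library totals 4 did so, these 3 and miR-361-3p (22.7%). Female and male libraries, compared with month as a term, differed for 0 candidates (0% of all tested, with 34 of 300 at an unadjusted p under 0.05, none of them a candidate, and no candidate with library totals either). The female minus male difference farthest from 0 was 0.26 for miR-425-3p with TMM (95% interval -0.26 to 0.78) and -0.25 for miR-423-3p with library totals (-0.77 to 0.27), on the log2 scale.

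**Figure D3:**
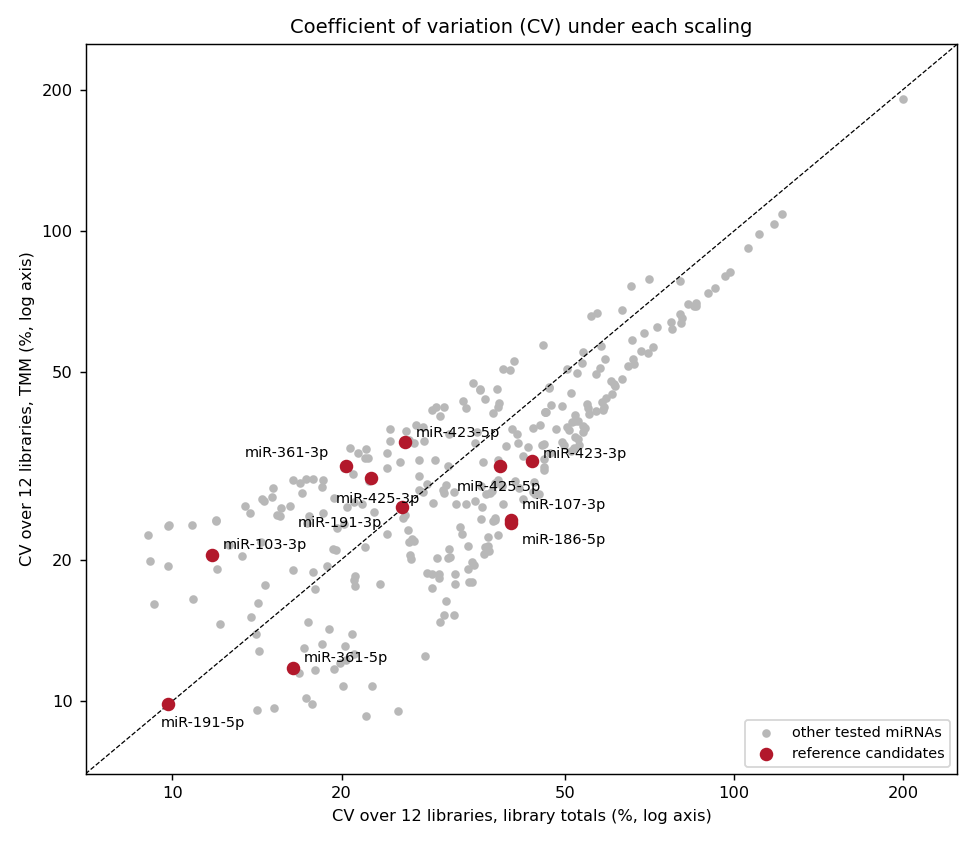
CV over 12 libraries with library totals (x axis, log) and with TMM (y axis, log) of 300 tested miRNAs, with the 11 tested candidates in red and the line of equal values dashed. miR-191-5p (9.84% and 9.86%) is at the lower left edge on the line, while miR-103-3p, miR-361-3p and chi-miR-423-5p lie above it and miR-107-3p, miR-186-5p and miR-423-3p below.

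The median CV of the 11 tested candidates lay close to that of abundant miRNAs. It was 25.9% with TMM and 25.7% with library totals, against 24.3% and 24.4% for the 121 miRNAs with a mean TPM of at least 100. Only 8 of the 11 reach that TPM. For all 300 tested miRNAs the median was 29.4% with TMM and 33.1% with library totals. The 5 lowest CVs of those 121 with TMM were of miR-221-3p (9.27%), miR-200c (9.51%), miR-16b-5p (9.56%), let-7a-5p (9.64%) and miR-191-5p (9.86%). With library totals they were of let-7i-5p (9.14%), let-7g-5p (9.29%), miR-374a-3p (9.82%), miR-100-5p (9.83%) and miR-191-5p (9.84%). Only miR-191-5p was in both. Of 17 other miRNAs in common use as references, 15 had a value, and 6 differed over the groups with TMM and 11 with library totals, where 47.3% and 51% of all tested miRNAs did. Their CV with TMM ran from 9.27% for miR-221-3p to 46.3% for miR-101-3p.

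Ratios of 2 miRNAs within a library do not depend on the scaling. Over the 28 pairs of the 8 candidates with at least 100 counts in every library, the log2 ratio varied least for miR-191-5p over miR-361-5p (SD 0.223, n = 12), miR-107-3p over miR-186-5p (0.230) and miR-103-3p over miR-191-5p (0.239). It varied most for miR-107-3p over chi-miR-423-5p (0.751). The mean SD against the 7 others, the measure used by geNorm, was lowest for miR-191-5p (0.387), miR-103-3p (0.391) and miR-361-5p (0.407), and highest for miR-423-3p (0.549). The other 4 were at most at 0.522. The measure sets a candidate against the chosen ones alone, so pairs that move together, such as miR-107-3p and miR-186-5p, lower it.

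The ratio of miR-103-3p to miR-107-3p was 38.6 ± 2.60 for telogen (SD, n = 4), 30.8 ± 1.82 for May (n = 2), 80.1 ± 8.35 for September (n = 2) and 66.7 ± 12.7 for catagen (n = 4). The 6 libraries of telogen and May, at 29.5 to 42.3, did not overlap with the 6 of September and catagen, at 51.0 to 86.0. Which of the reads on these near-identical miRNAs belonged to which was decided before deposit. The neighbours miR-191-5p and miR-425-5p also parted, with a ratio of 82.2 ± 9.37 for telogen, 123 ± 7.16 for May, 172 ± 56.1 for September and 148 ± 37.2 for catagen. Telogen, at most 90.4, was below all other libraries, of which the lowest was at 117.

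The arms of a precursor also parted. Of 82 precursors with both arms tested, 61% changed their ratio over the groups, as did 3 of the 4 among the candidates (limma on log2 ratios, adjusted p under 0.05). For miR-423 the ratio of 5p to 3p was 0.595 ± 0.189 (telogen), 0.414 ± 0.030 (May), 0.923 ± 0.004 (September) and 0.772 ± 0.100 (catagen), with an adjusted p of 0.0159 in limma. Both May libraries were below the September and catagen libraries, and telogen overlapped with catagen. Without the male May library the adjusted p was 0.0754.

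For miR-361 the ratio of 5p to 3p was 0.883 ± 0.141 (telogen), 0.809 ± 0.009 (May), 0.440 ± 0.028 (September) and 0.686 ± 0.223 (catagen), with an adjusted p of 0.0432 in limma, a call lost in 8 of 12 fits without 1 library, namely each May or September library, the male December, male February and both March libraries (adjusted p up to 0.154). For miR-425 it fell from 2.49 ± 0.480 in telogen and 2.10 ± 0.0896 in May to 1.41 ± 0.302 in September and 1.16 ± 0.157 in catagen (adjusted p = 0.0021 in limma), a call kept in 12 of 12 such fits. The ratio of miR-191 did not pass (span 0.21 on the log2 scale, adjusted p = 0.887 in limma), where the median span of the 82 precursors was 1.05.

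**Figure D4:**
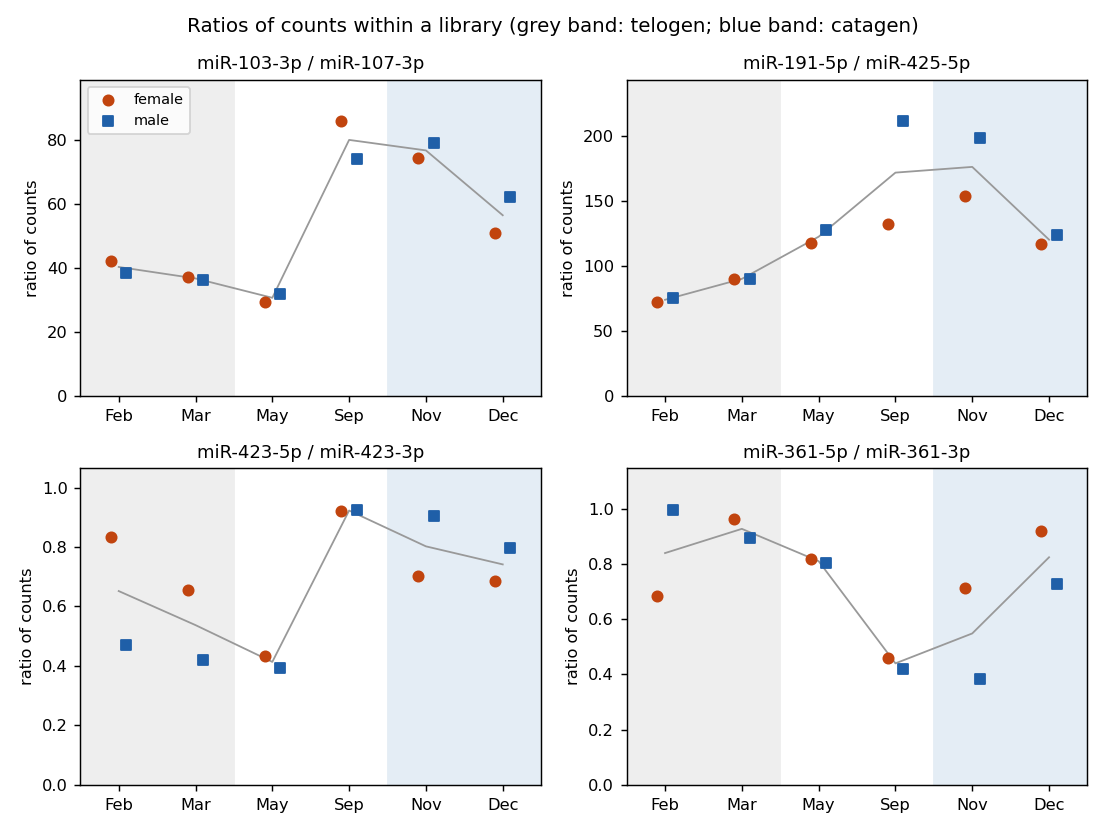
Ratio of counts (y axis, linear from 0) of 4 pairs of candidates in each library by month (x axis), with circles for female and squares for male libraries and a grey line through the means of each month. The ratio of miR-103-3p to miR-107-3p is at most 42.3 in telogen and May and at least 51.0 in September and catagen.

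The number of miRNAs called and their split by direction varied with the reference. For this, TMM was replaced by the level of 1 dominant arm, or by the geometric mean of all 7, in the same edgeR fit with the 2-fold rule. By construction this shifts all miRNAs by the reference's own change, and p-values take the reference as exact, so the counts are a description. For catagen against telogen, TMM gave 13 miRNAs higher and 19 lower, the geometric mean 11 and 23, miR-191-5p 9 and 25, and library totals 5 and 43. The other single arms gave 1 and 72 (miR-103-3p), 2 and 62 (miR-361-3p), 2 and 59 (miR-423-3p), 28 and 16 (miR-107-3p), 39 and 7 (miR-186-5p), and 111 and 1 (miR-425-5p).

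From May to September the counts were 29 higher and 26 lower with TMM, 36 and 16 with the geometric mean, 14 and 54 with miR-191-5p, 9 and 71 with library totals and 3 and 110 with miR-361-3p. They were 136 and 2 with miR-107-3p, 117 and 2 with miR-186-5p, 51 and 2 with miR-423-3p, 23 and 7 with miR-425-5p and 10 and 60 with miR-103-3p. The size factor from the geometric mean stayed within a 1.19-fold range of the TMM factor over the 12 libraries and within 1.68-fold of the library totals. That from miR-191-5p alone stayed within 1.39-fold and 1.37-fold. The range was 1.74-fold against TMM for miR-103-3p and 3.03-fold for miR-423-3p. For a single arm this range is by construction that of its own scaled level, so it is not a separate result.

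**Figure D5:**
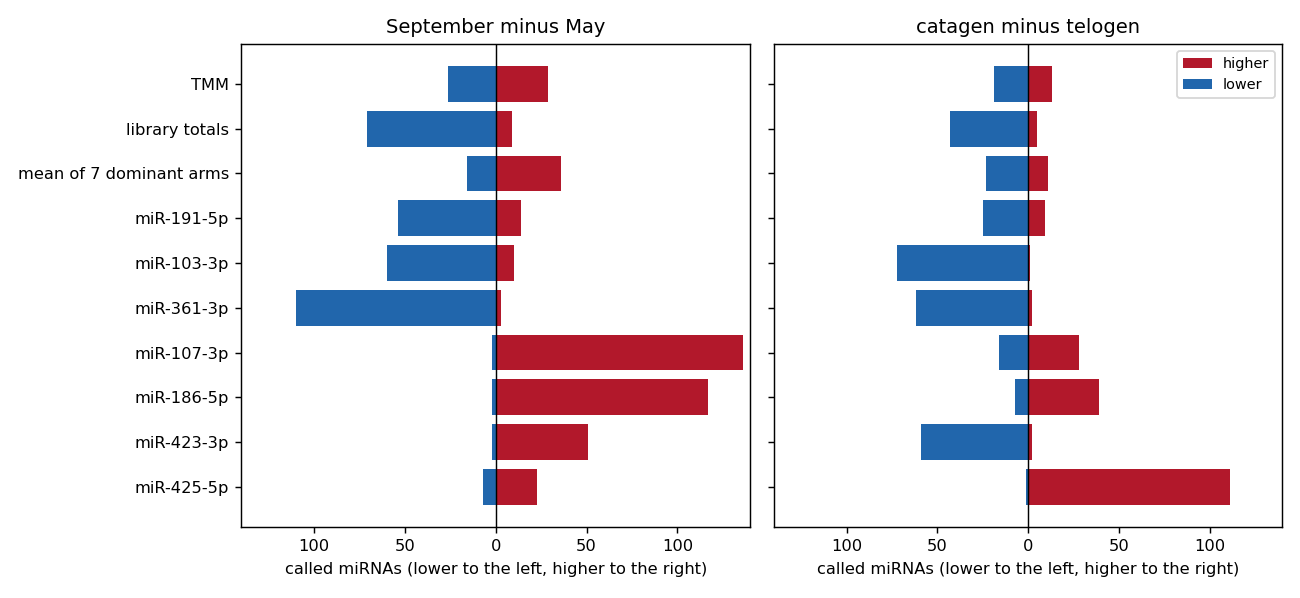
Number of miRNAs called lower (blue, to the left) and higher (red, to the right) at 2-fold and an adjusted p under 0.05, from May to September and from telogen to catagen, for each reference (y axis). In the right panel the bars are close for TMM (13 and 19) and the mean of 7 dominant arms (11 and 23), and nearly all on one side for miR-103-3p (1 and 72) and miR-425-5p (111 and 1).

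The miRNAs outside the candidates whose TMM level ran most like that of chi-miR-423-5p over the 12 libraries were miR-532-5p (Pearson r = 0.939), miR-296-3p (0.936) and miR-328-3p (0.932). The same miR-532-5p was closest to miR-103-3p (0.967). The closest were miR-301a-3p to miR-107-3p (0.943), miR-365-3p to miR-186-5p (0.913), miR-148a-3p to miR-191-5p (0.933), miR-3432-5p to miR-361-3p (0.930), miR-130b-5p to miR-423-3p (0.920) and miR-141 to miR-425-5p (0.801). These correlations were the highest among the tested miRNAs outside the candidates, share the same libraries and scaling, and are a description.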

How the data were processed

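Small RNA of SHFs was sequenced in 12 libraries. The authors removed adapters and reads with N and mapped the rest to the goat build CHIR_2.0. miREvo and mirDeep2 served to find the miRNAs, and Bowtie 0.12.9 to quantify them. The deposited values are raw counts and TPM per library, and the deposited TPM differs from CPM on the library total by at most 0.005. RT-qPCR in the study used U6 and was not analysed here.

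Phases were compared on the counts with edgeR 4.0.16 under R 4.3.3 (quasi-likelihood test, 1 fit of 4 groups, TMM after the filter of more than 5 CPM in at least 2 libraries, Benjamini-Hochberg over 300 miRNAs), arm ratios with limma 3.58.1 (1 added to each count). CVs are of scaled CPM. Likeness is Pearson's r of log2 TMM CPM (prior count 1). SEs are the log2 fold change over the square root of F, and floors cover counting error only. Libraries of a month differed beyond sampling noise (chi-square over degrees of freedom of 70.6 or more), so none was pooled. On simulated counts (catagen minus telogen, 300 miRNAs), 169 of 200 2-fold and 200 of 200 4-fold changes were recovered, with 6 and 4 of 100 unchanged ones called. As many miRNAs were raised as lowered, and recovery was by adjusted p and direction, without the 2-fold rule. One-sided shifts were not simulated, and pairwise comparisons with May or September were not scored.

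Named miRNAs were all candidates, up to 3 most alike, the 5 lowest CVs among miRNAs with a mean TPM of at least 100, and the extremes of a list of common references. Members and lists were chosen with earlier results of these data known. Alternatives were library totals, RLE, upper quartile, the geometric mean of the candidates, other filters, DESeq2 1.42.0, edgeR's likelihood-ratio test, sex as a block, only the groups compared and each library left out.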

Additional observations from a re-analysis of the deposited data

Results flagged for a closer look

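In groups of 4 libraries, the gap of the farthest library was set against the range of its group (Dixon's test at the 95% level). Of 48 groups examined, 2 were flagged, where chance flags about 1 in 20. miR-191-5p in catagen with library totals had a gap of 0.886, because the female November library was at a TPM of 1161 and the others at 1220 to 1228. miR-425-3p in catagen with library totals had a gap of 0.915, because the male November library was at 5.15 and the others at 7.96 to 8.22.

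For 1 candidate, miR-423-3p, the catagen minus telogen difference with library totals went up in all female libraries and down in all male ones. In telogen the female libraries were at a TPM of 425.4 and 468 and the male ones at 855 and 1154, and in catagen the female ones were at 941 and 681 and the male ones at 724 and 657. This difference between the sexes was not tested.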

How the results depend on the processing

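The count of candidates that differed over the 4 groups stayed within 1.5 times of 6 under every alternative and with every library left out. Among the differences recomputed under every alternative, those that turned direction were of miR-103-3p and miR-191-5p, and other candidates also had differences of opposite sign under library totals. With library totals, the log2 fold change of miR-103-3p was -0.087 from May to September and -0.084 from May to catagen, and that of miR-191-5p was -0.13 from May to September, -0.26 from telogen to catagen and -0.33 from May to catagen. With upper quartile scaling miR-191-5p was -0.10 from telogen to catagen. With TMM and each library left out, miR-191-5p ran from -0.019 (without the female May library) to 0.28 from May to catagen. With TMM and each library left out, counts of candidates called at 2-fold ran from 0 to 1 from telogen to May, 0 to 2 from May to September, and 0 to 1 from telogen to catagen, telogen to September and May to catagen. Calls with library totals were not refitted with a library left out. From May to September the count of 0 became 3 with library totals, 1 with edgeR's default filter or only the groups compared, and 5 with no minimum fold. For telogen to catagen it became 1 with library totals and 5 with no minimum fold. From telogen to September the count of 1 became 0 with RLE, upper quartile or DESeq2, and 3 with no minimum fold. It became 0 without the female May, female September or female March library. With library totals it stayed at 1, but that call was of miR-425-5p and not of chi-miR-423-5p. From May to catagen it became 3 with library totals and 3 with no minimum fold. Precursors with a changed arm ratio ran from 1 (without the male May library) to 3. Why these values moved was not tested. The labels give no replicate numbers, but each month has a female and a male library, and sex as a block added 2 calls by adjusted p, both of miR-186-5p (telogen to May, 0.0384, and telogen to September, 0.0471), and changed no other call recomputed in that fit. May and September have 2 libraries each, which limits every comparison with them, and for miR-191-3p, miR-425-3p and miR-425-5p the depth limits the precision.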
